A study of Homo sapiens with 12 samples.

Results

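Aldo-keto reductases (AKR) and aldehyde dehydrogenases (ALDH) clear reactive carbonyl compounds by opposite chemistry, and 10 genes of these families were described across 12 RNA sequencing libraries of human lung cell lines. The members were the rows of the deposited table with the symbols AKR1B1, AKR1B10, AKR1C1, AKR1C2, AKR1C3, ALDH1A1, ALDH1A3, ALDH2, ALDH3A1 and ALDH3A2, that is 10 of 57152 rows with values. All 10 passed the filter at a mean of 1 TPM (transcript level per gene length, scaled to a fixed total per library) and were among the 13968 genes tested. The libraries formed 4 groups of 3. LB amiodarone plus HPbCD were LB cells given 10 mg/ml HPbCD, a cyclodextrin (a sugar ring that takes up cholesterol), when they were seeded and 10 µM amiodarone 24 h later, for 24 h. The labels do not say whether HPbCD stayed in the medium with the drug, so HPbCD before amiodarone and HPbCD together with it cannot be told apart. LB amiodarone were LB cells given 10 µM amiodarone, a cationic amphiphilic antiarrhythmic drug, for 24 h. LB DMSO were LB cells and A549 DMSO were A549 cells, each given the vehicle, 0.1% DMSO, for 24 h. No DMSO percentage is recorded for the groups given amiodarone. A549 is a lung adenocarcinoma line, and the labels name A549 as the source of the LB cells too. An HPbCD group without amiodarone and amiodarone-treated A549 cells were not analysed here. Nothing in the labels says that libraries of a group came from separate cultures, and the p-values then rest on a spread among libraries that may be technical only.

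Aldo-keto reductases are mostly cytosolic enzymes that use NADPH to reduce aldehydes and ketones to alcohols, and aldehyde dehydrogenases use NAD+ or NADP+ to oxidise aldehydes to carboxylic acids. Several AKR genes and ALDH3A1 are known targets of NRF2 (gene NFE2L2), a transcription factor that the adaptor KEAP1 marks for degradation. A549 cells are known to carry a mutant KEAP1, and high AKR and ALDH levels are a known trait of this line.

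The sums of TPM per library lay between 999449 and 999632, and because TPM holds no counts, the depth of the libraries is unknown. Libraries of a group correlated at 0.985 to 0.989 across the tested genes. All 5 epithelial markers examined had a mean of at least 1 TPM in every group, and their summed level was 2561 to 2956 TPM in LB amiodarone plus HPbCD, 2748 to 3127 in LB amiodarone, 2894 to 3223 in LB DMSO and 7254 to 7791 in A549 DMSO. The 7 alveolar type II markers summed to 1320.1 to 1579 TPM in LB amiodarone plus HPbCD, 1166 to 1273 in LB amiodarone, 1363 to 1527 in LB DMSO and 22.3 to 22.7 in A549 DMSO. The gap between the lines came from 4 of them, SFTPC, SFTPB, SFTPD and ABCA3. NAPSA had 2.06 to 3.88 TPM in LB DMSO and 1.75 to 3.44 in A549 DMSO, and LAMP3 and SFTPA1 stayed under 1 TPM in every library. Over the 12 libraries the fibroblast, leukocyte and endothelial lists reached at most 16.2, 5.85 and 0.88 TPM. Within A549 DMSO, replicate 3 held the highest value for 8 of the 10 members, so results against that group are also given without it.

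The 10 genes lie at 6 places in the genome (GENCODE 29 on GRCh38). AKR1B1 (chromosome 7, 134442350 to 134459284, minus strand) and AKR1B10 (chromosome 7, 134527592 to 134541408, plus strand) are 68.3 kb apart. AKR1C1 (chromosome 10, 4963253 to 4983283, plus strand), AKR1C2 (chromosome 10, 4987400 to 5018031, minus strand) and AKR1C3 (chromosome 10, 5035354 to 5107686, plus strand) form a cluster with gaps of 4.12 and 17.3 kb. ALDH3A2 (chromosome 17, 19648136 to 19677598, plus strand) and ALDH3A1 (chromosome 17, 19737984 to 19748943, minus strand) are 60.4 kb apart. ALDH1A1 (chromosome 9, 72900662 to 73080442, minus strand), ALDH2 (chromosome 12, 111766887 to 111817529, plus strand) and ALDH1A3 (chromosome 15, 100877714 to 100916626, plus strand) stand alone.

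The AKR1C genes share so much sequence that the division of reads between them is an estimate, and their first 90 coding bases are shown for that reason. The sequences are from GENCODE 29 transcripts, and capitals mark bases that differ from AKR1C1.
AKR1C1: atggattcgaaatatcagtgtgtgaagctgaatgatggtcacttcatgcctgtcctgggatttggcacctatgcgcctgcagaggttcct
AKR1C2: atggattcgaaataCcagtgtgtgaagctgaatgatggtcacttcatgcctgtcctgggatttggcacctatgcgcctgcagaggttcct
AKR1C3: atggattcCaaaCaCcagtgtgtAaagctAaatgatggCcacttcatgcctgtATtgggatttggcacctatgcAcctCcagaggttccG
In this stretch AKR1C2 differed from AKR1C1 at 1 base and AKR1C3 at 11 bases. Over the 969 coding bases, identity was 98.0% between AKR1C1 and AKR1C2, 91.4% between AKR1C1 and AKR1C3 and 91.0% between AKR1C2 and AKR1C3. The longest identical coding run was 186 bases between AKR1C1 and AKR1C2.

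The share of windows of 100 bases that occur without mismatch in a transcript of another gene describes how far short reads can be told apart. No source used here gives the read length, and 100 bases is a chosen length. It was 17.4% of the principal transcript of AKR1C1, 32.9% of AKR1C2 and 4.98% of AKR1C3. AKR1B10 shared 2.01% of its windows, with AKR1B15 and the pseudogene AKR1B10P1. ALDH2 shared 6.21% of its windows. Over coding windows alone the share was 20.7% for AKR1C1, 26.4% for AKR1C2, 9.77% for AKR1C3, 3.53% for AKR1B10 and 40.2% for ALDH2. The coding windows of ALDH2 were shared with AC002996.1, an annotated gene that overlaps it on the same strand and lay between 15.1 and 34.2 TPM over the 12 libraries, so the ALDH2 level depends on how such reads were divided. AKR1B1, ALDH1A1, ALDH1A3, ALDH3A1 and ALDH3A2 shared 0 of their windows. RSEM, the counting tool, divides shared reads by estimation.

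The AKR1C start sites are alike as well, and the bases before them are shown because all 3 genes were lower in LB cells than in A549 cells. The sequences are RefSeq promoters on GRCh38.p14, each aligned to the 120 bases before the AKR1C1 start site, with capitals for bases that differ from AKR1C1 or are inserted. Bases of AKR1C1 that are missing from another sequence are not marked, and AKR1C3 has 15 inserted or missing positions.
AKR1C1 (chr10:4963295-4963414, plus strand): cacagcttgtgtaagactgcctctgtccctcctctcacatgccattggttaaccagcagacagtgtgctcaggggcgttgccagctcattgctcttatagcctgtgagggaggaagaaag
AKR1C2 (chr10:5003862-5003981, minus strand): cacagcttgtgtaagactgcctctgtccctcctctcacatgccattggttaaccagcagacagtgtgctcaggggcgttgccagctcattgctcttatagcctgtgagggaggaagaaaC
AKR1C3 (chr10:5094285-5094409, plus strand): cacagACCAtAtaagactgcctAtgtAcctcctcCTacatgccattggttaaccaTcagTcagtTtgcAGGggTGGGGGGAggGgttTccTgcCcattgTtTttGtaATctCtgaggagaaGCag
Over the 250 bases before the start site, identity of aligned bases was 99.6% between AKR1C1 and AKR1C2 and 80.4% between AKR1C1 and AKR1C3. For 7 members with 10 promoter windows of 300 bases in the table, the core TGACNNNGC of the antioxidant response element, which NRF2 binds and which can overlap AP-1 motifs, occurred in 0 windows on either strand, against 13.3% of all 35116 windows. The letters CCAAT occurred on either strand in 9 of the 10 windows, against 34.6% of all windows. AKR1B10, ALDH2 and ALDH3A1 had no window, and the near-identical windows of AKR1C1 and AKR1C2 are not independent. A match is a description of these letters, and a missing one says nothing about the factor.

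TPM is a level per transcript length, so levels can be set beside each other. ALDH1A1, a retinaldehyde dehydrogenase of the cytosol, was the highest member in every group and ranked 22nd by mean TPM among the tested genes. ALDH1A3, another retinaldehyde dehydrogenase, was the lowest member in every group, between 14.9 and 33.6 TPM over the 12 libraries. The 10 genes together made up 0.835 to 0.900% of all TPM in LB amiodarone plus HPbCD, 0.916 to 0.938% in LB amiodarone, 0.990 to 1.05% in LB DMSO and 1.47 to 1.84% in A549 DMSO. In each LB group the order by mean was ALDH1A1, ALDH3A1, AKR1C2, AKR1B1, AKR1B10, AKR1C3, ALDH3A2, AKR1C1, ALDH2 and ALDH1A3. All 9 neighbouring ranges in that order were apart in LB amiodarone and in LB DMSO, and in LB amiodarone plus HPbCD those of AKR1B1 and AKR1B10 and of ALDH3A2 and AKR1C1 overlapped. In A549 DMSO the order began with ALDH1A1, AKR1C2, AKR1B10, ALDH3A1, AKR1C3 and AKR1B1 and went on with AKR1C1, ALDH3A2, ALDH2 and ALDH1A3, and the ranges of AKR1C2 and AKR1B10, of AKR1B10 and ALDH3A1 and of AKR1C3 and AKR1B1 overlapped.

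**Figure D1:**
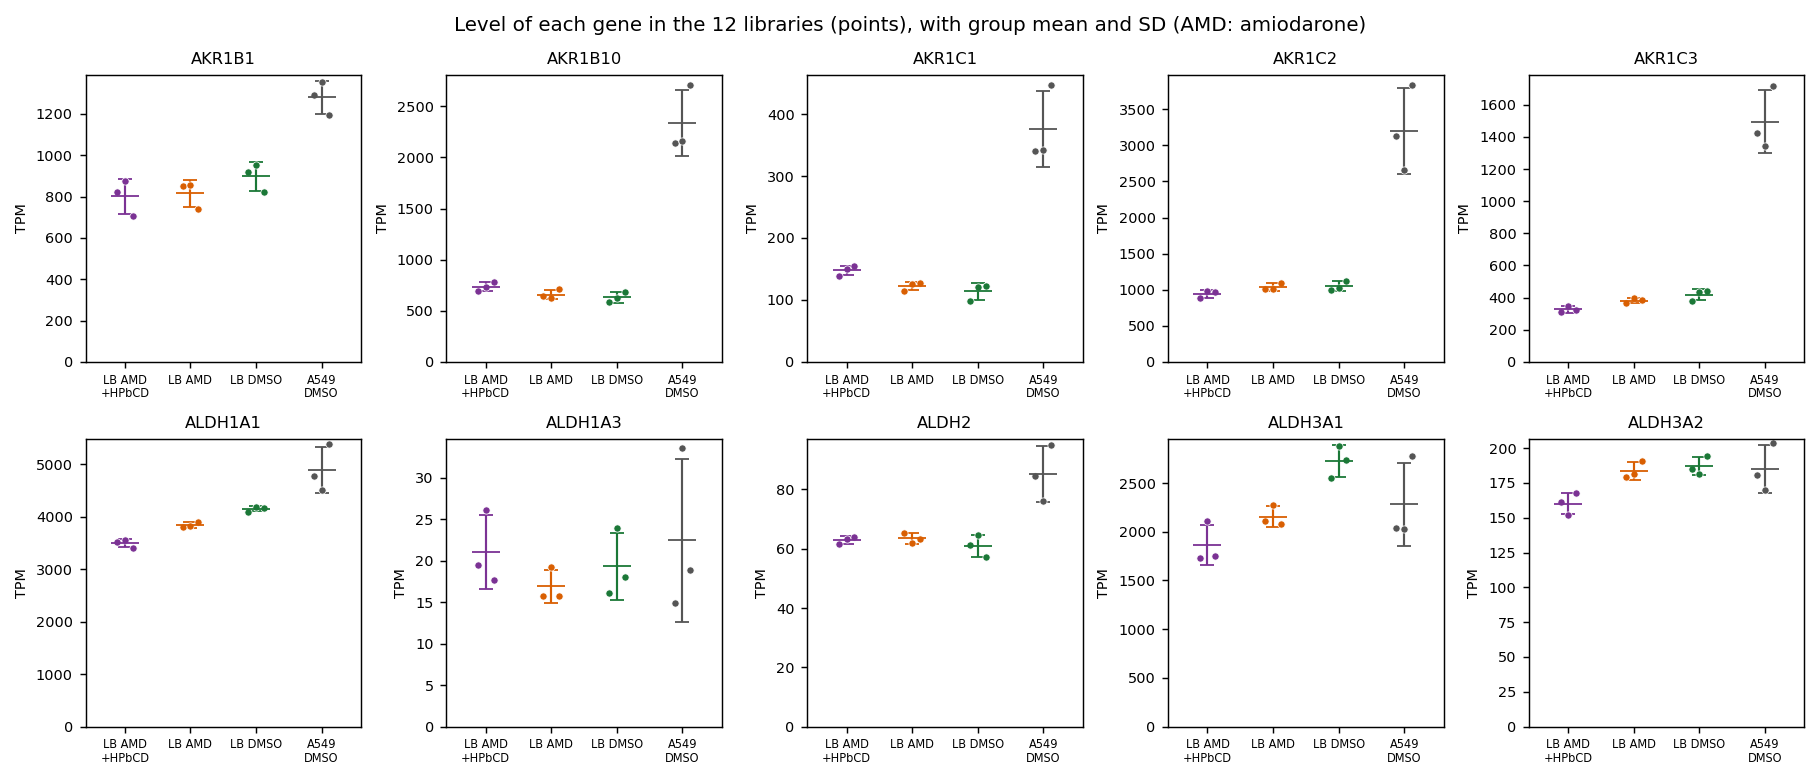
Level of each gene (vertical axis, TPM, from 0) in the 12 libraries, with 1 panel per gene and the 4 groups along the horizontal axis. Points are libraries in replicate order, the horizontal tick is the group mean and the bar is the SD of 3 libraries. AKR1B10 and the AKR1C genes lie higher in every A549 DMSO library than in any LB library, and ALDH1A1 is lowest in LB amiodarone plus HPbCD, next in LB amiodarone and higher in LB DMSO and A549 DMSO.

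LB DMSO was set against A549 DMSO to see how the derived line differs without drug. All 5 AKR members were lower in LB cells, 4 of them by about 3- to 4-fold, and so were ALDH1A1 and ALDH2 by smaller amounts. Of the 10 members 7 fell, 0 rose and 3 did not pass the test, where 18.2% of all tested genes fell, 14.2% rose and 32.4% passed in either direction. The test was limma's moderated test on log2(TPM + 1), fitted over all 13968 genes with Benjamini-Hochberg adjustment and a threshold of 0.05. All differences below are on that log2 scale. The median difference was -0.49 for the 10 members and -0.035 for all tested genes, and the groups did not overlap for 7 members, all of them lower, against 43.7% of tested genes in either direction, 18.6% higher and 25.1% lower.

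AKR1B10, a reductase of retinal and other aldehydes, had 584, 625 and 684 TPM in LB DMSO, against 2143, 2165 and 2705 in A549 DMSO. The groups were far apart, with a difference of -1.88 ± 0.09 (SE, adjusted p = 1.39e-08). AKR1B1, aldose reductase, which turns glucose into sorbitol, had 917, 955 and 820.5 TPM in LB DMSO, against 1289.6, 1353 and 1197 in A549 DMSO. It fell less than its neighbour, by 0.51 ± 0.09 on the log2 scale (adjusted p = 0.000658). The ratio of AKR1B10 to AKR1B1 was 0.637 to 0.833 in LB DMSO and 1.60 to 2.26 in A549 DMSO.

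The AKR1C enzymes reduce steroid hormones and prostaglandins. AKR1C2, a ketosteroid reductase, had 998, 1029.6 and 1126 TPM in LB DMSO, against 3123, 2652 and 3833 in A549 DMSO, a difference of -1.59 ± 0.10 (adjusted p = 2.42e-07). AKR1C3, which also makes prostaglandin F, had 379, 433 and 442 TPM in LB DMSO, against 1425, 1344 and 1718 in A549 DMSO, a difference of -1.83 ± 0.09 (adjusted p = 1.36e-08). AKR1C1, which inactivates progesterone, had 98.3, 121 and 123 TPM in LB DMSO, against 340.1, 342 and 446 in A549 DMSO, a difference of -1.71 ± 0.11 (adjusted p = 1.69e-07). The lowest A549 library lay above the highest LB library for each of the 3 rows. Their sum, which still depends on the division of reads because their transcripts differ in length, was 1476, 1584 and 1691 TPM in LB DMSO and 4889, 4338 and 5997 in A549 DMSO, and the mean of the sum fell by 68.8%. The 3 shares of that sum differed less: AKR1C2 held 65.0 to 67.6% in LB DMSO and 61.1 to 63.9% in A549 DMSO, and AKR1C3 held 25.7 to 27.3% in LB DMSO and 28.6 to 31.0% in A549 DMSO.

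The ALDH members did not share the large fall. ALDH1A1 had 4101, 4188 and 4172 TPM in LB DMSO, against 4783, 4512 and 5384 in A549 DMSO, and fell by 0.23 ± 0.05 on the log2 scale (adjusted p = 0.00504). ALDH2, the mitochondrial enzyme that oxidises acetaldehyde, had 61.2, 64.7 and 57.2 TPM in LB DMSO, against 84.4, 76.1 and 95.1 in A549 DMSO, and fell by 0.47 ± 0.07 (adjusted p = 0.000346). Its overlapping partner AC002996.1 had 30.7, 19.6 and 20.0 TPM in LB DMSO and 31.2, 34.2 and 32.6 in A549 DMSO, and its part in the ALDH2 difference was not tested.

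ALDH3A1, which oxidises aromatic aldehydes and products of lipid peroxidation, had 2553, 2884 and 2733 TPM in LB DMSO, against 2043, 2028 and 2774 in A549 DMSO. The groups overlapped because of A549 DMSO replicate 3, and the difference of 0.27 ± 0.11 was not past the test (adjusted p = 0.0845). Without that library it was 0.42 and past the test (adjusted p = 0.00278). The library was picked for its high values, so leaving it out had to raise this difference, and the call is not separate support. ALDH3A2, the fatty aldehyde dehydrogenase of the endoplasmic reticulum, had 187 ± 6.40 TPM in LB DMSO and 185 ± 17.3 in A549 DMSO (SD, n = 3 each), with a 95% interval of the difference of -0.12 to 0.16. ALDH1A3 had 16.2, 23.9 and 18.0 TPM in LB DMSO and 14.9, 33.6 and 18.9 in A549 DMSO, where replicate 2 stood above the others in each line, and its interval of -0.68 to 0.39 was too wide to show a difference.

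Without A549 DMSO replicate 3, the 7 falls stayed past the test and ALDH3A1 joined as a rise. Over all 12 libraries left out in turn, the count of members past the test was 7 or 8, and the AKR1B10 difference lay between -1.94 and -1.77. The epithelial marker sum was also lower in LB DMSO, at 2894 to 3223 TPM against 7254 to 7791 in A549 DMSO, and its part in these results was not tested.

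**Figure D2:**
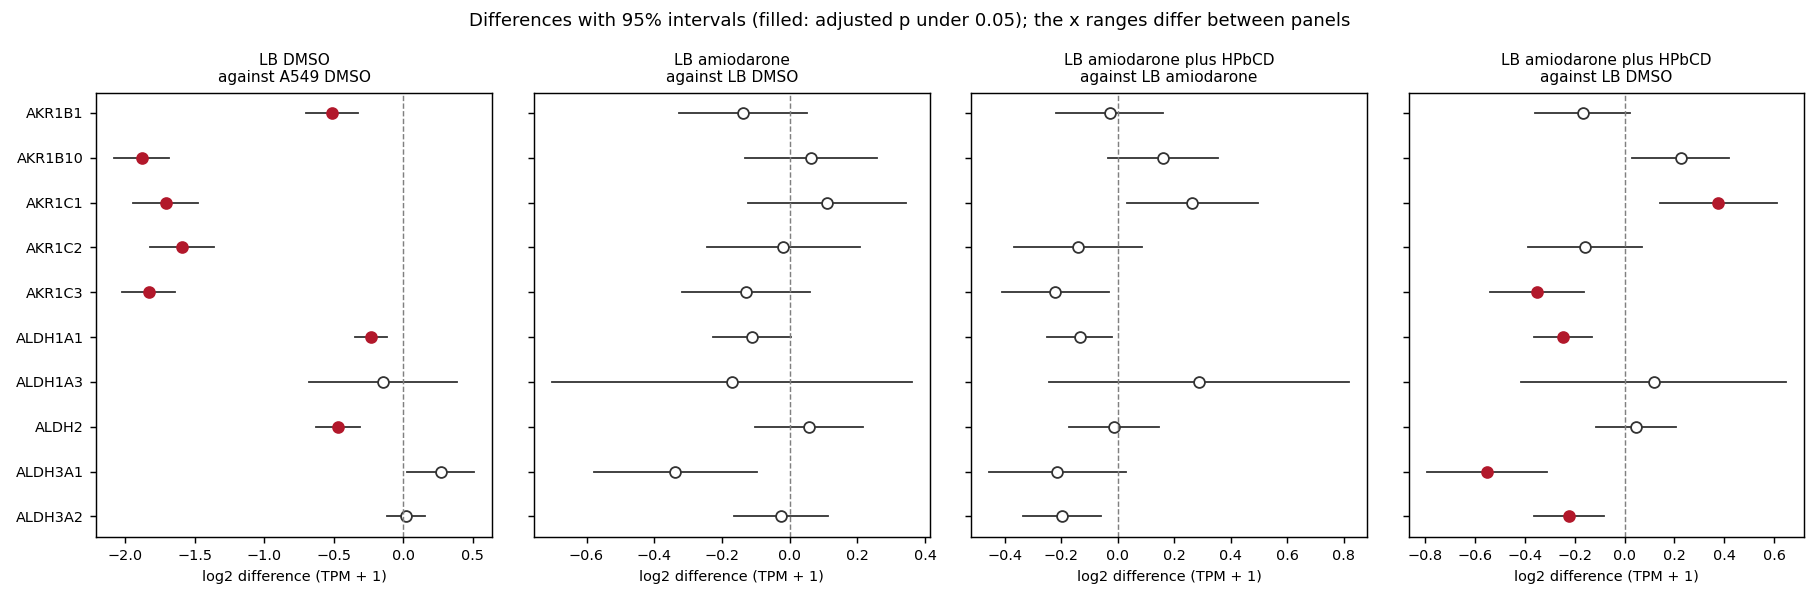
Log2 differences of the 10 genes (horizontal axis, log2(TPM + 1), first group minus second) in 4 comparisons, with 95% intervals from limma as lines and filled points for an adjusted p under 0.05. LB DMSO against A549 DMSO has 7 filled points, all below 0, amiodarone against LB DMSO and HPbCD added to amiodarone have none, and amiodarone plus HPbCD against LB DMSO has 5.

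Other genes of the NRF2 pathway moved both ways between LB DMSO and A549 DMSO. Of the 21 NRF2 regulators and targets outside the families, 8 rose, 4 fell and 9 did not pass the test, with a median difference of 0.12. NQO1, a quinone reductase and widely used readout of NRF2, had 3032 ± 199 TPM in LB DMSO and 2276 ± 245 in A549 DMSO and rose (difference 0.42, adjusted p = 0.00121). HMOX1, heme oxygenase, rose to 204 ± 13.7 TPM in LB DMSO, against 114 ± 20.5 in A549 DMSO (difference 0.86, adjusted p = 0.000106). GPX2, a glutathione peroxidase, fell to 81.5 ± 5.39 TPM in LB DMSO, against 529 ± 126 in A549 DMSO (difference -2.66, adjusted p = 4.65e-08). UGDH, TALDO1 and TKT, named after their values were seen, fell by 0.57, 0.35 and 0.26 on the log2 scale. ME1, malic enzyme, which supplies NADPH, and OSGIN1, an oxidative stress response gene, rose as well, by 0.79 and 0.75 on the log2 scale. NFE2L2 had 40.6 ± 3.46 TPM in LB DMSO and 44.9 ± 3.01 in A549 DMSO, and KEAP1 had 64.9 ± 1.51 in LB DMSO and 57.1 ± 5.04 in A549 DMSO, neither past the test (adjusted p = 0.33 and 0.0619). KEAP1 passed as a rise without A549 DMSO replicate 3 (difference 0.25, adjusted p = 0.0146), after quantile normalization (0.0257) and after median-of-ratios scaling (0.0377).

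Of the 11 other genes of the AKR superfamily 6 could be tested, of which 4 fell, 0 rose and 2 did not pass. AKR1B15, a close copy of AKR1B10 with 93.1% coding identity, had 17.3 ± 2.77 TPM in LB DMSO and 54.9 ± 6.91 in A549 DMSO (difference -1.62, adjusted p = 7.17e-07). The pseudogene AKR1B10P1 had 7.26, 7.41 and 9.53 TPM in LB DMSO, against 28.2, 25.4 and 27.8 in A549 DMSO. Both share some sequence with AKR1B10, and the part of AKR1B10 reads in their levels was not tested. AKR7A2, which reduces succinic semialdehyde, had 37.9 ± 4.56 TPM in LB DMSO and 49.7 ± 0.772 in A549 DMSO (difference -0.39, adjusted p = 0.00264). AKR1E2 differed by -0.40 and lost its call without LB DMSO replicate 2 (adjusted p = 0.0566). AKR1A1 differed by -0.24, and its call was lost without A549 DMSO replicate 1 (adjusted p = 0.0657) or 3 (0.107) or LB DMSO replicate 1 (0.108) or 3 (0.0736), with no filter (0.0632), after median-of-ratios scaling (0.0627) or quantile normalization (0.0593) and with limma without trend (0.0535). AKR1C4, the AKR1C gene of liver, averaged 0.37 TPM in LB DMSO and 1.10 in A549 DMSO and was too low to be tested. Of the 14 other ALDH genes 10 were tested, of which 2 rose, 4 fell and 4 did not pass. The falls of ALDH4A1, ALDH6A1 and ALDH7A1 lost their calls without some library. ALDH1L2, the mitochondrial formyltetrahydrofolate dehydrogenase, rose to 6.75 ± 0.323 TPM in LB DMSO, against 3.52 ± 0.972 in A549 DMSO (difference 0.80, adjusted p = 0.000939). Of 12 tested retinoid genes 2 rose and 3 fell. CYP26B1, which breaks down retinoic acid, fell to 3.80 ± 0.357 TPM in LB DMSO, against 7.23 ± 0.842 in A549 DMSO (difference -0.78, adjusted p = 0.00118), and CRABP1 and RARB were low in both lines, at most 2.77 TPM on average. Of 10 tested carbonyl reductases and alcohol dehydrogenases 3 rose and 0 fell, namely SDR16C5, CBR3, a carbonyl reductase, and DHRS4, with differences of 1.44, 0.47 and 0.26.

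**Figure D3:**
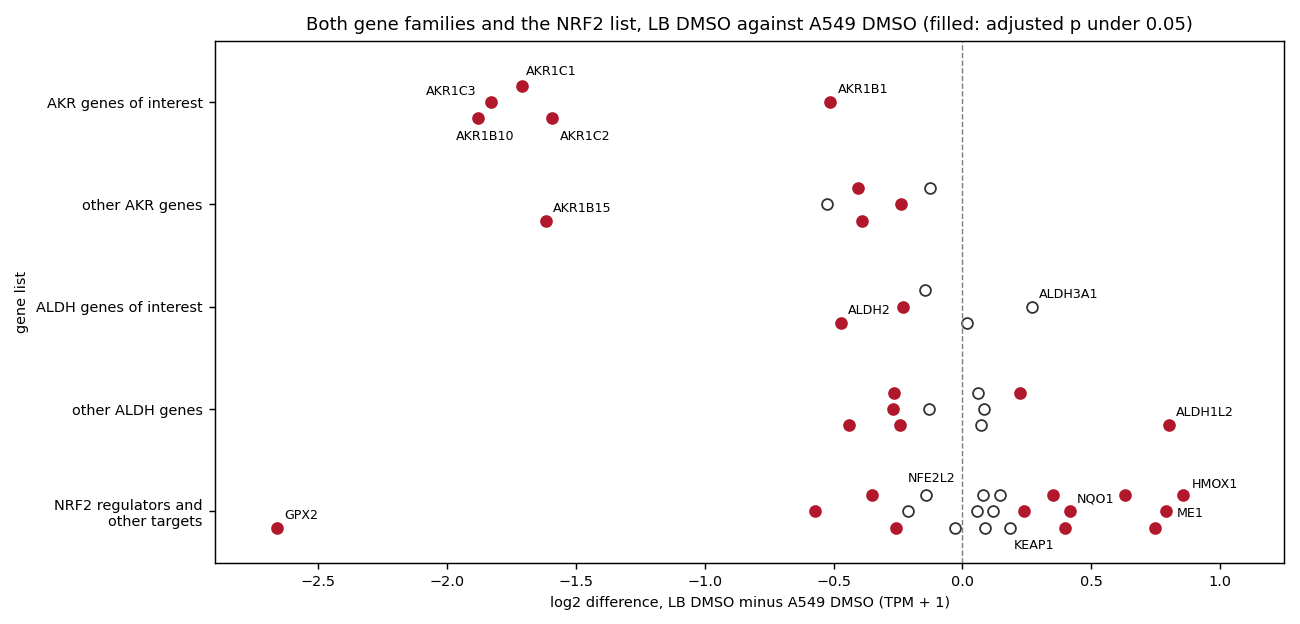
Log2 difference, LB DMSO minus A549 DMSO (horizontal axis, log2(TPM + 1)), for each tested gene of 5 lists (vertical axis), with filled points for an adjusted p under 0.05. The 5 AKR genes lie below 0, with AKR1B15 near AKR1B10, and NQO1, HMOX1 and ME1 of the NRF2 list lie above 0 while GPX2 lies farthest below.

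Amiodarone was set against LB DMSO to see what the drug does in LB cells. The median absolute difference was 0.11 for the 10 members and 0.13 for all tested genes. None of the 10 passed limma's test, where 8.62% of all tested genes did, 4.9% higher and 3.72% lower. Only ALDH3A1 had an unadjusted p under 0.05, 1 of 10 members against 23.1% of tested genes. ALDH3A1 had 2109, 2276 and 2078 TPM in LB amiodarone, against 2553, 2884 and 2733 in LB DMSO. These groups did not overlap, and the difference was -0.34 ± 0.11 (adjusted p = 0.084). It passed when only the 2 groups compared were fitted (adjusted p = 0.0185) and without A549 DMSO replicate 3 (adjusted p = 0.0171), with adjusted p from 0.0171 to 0.226 across the alternatives. Leaving out an A549 library does not change a difference between LB groups, only the spread estimated over all groups. ALDH1A1 had 3801, 3824 and 3908 TPM in LB amiodarone, against 4101, 4188 and 4172 in LB DMSO, again without overlap (difference -0.11 ± 0.05, adjusted p = 0.234). Groups that do not overlap were found for these 2 members of 10, both lower, against 30% of tested genes, 15.2% higher and 14.8% lower.

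The ranges of all 5 AKR members overlapped between LB amiodarone and LB DMSO. AKR1B1 had 852, 856 and 738 TPM in LB amiodarone, against 917, 955 and 820.5 in LB DMSO. Its 95% interval of the difference was -0.33 to 0.05 (adjusted p = 0.376, and 0.0423 with replicate number added to the fit). AKR1C3 had 382 ± 16.1 TPM in LB amiodarone and 418 ± 34.0 in LB DMSO, with an interval of -0.32 to 0.06. The means of both were lower with the drug, and those of AKR1B10 and AKR1C1 were higher. AKR1C1 had 123 ± 6.86 TPM in LB amiodarone and 114 ± 13.7 in LB DMSO, with an interval of -0.12 to 0.35. AKR1B10 had 659 ± 45.3 TPM in LB amiodarone and 631 ± 49.9 in LB DMSO, with a 95% interval of the difference of -0.13 to 0.26. AKR1C2 had 1037 ± 48.5 TPM in LB amiodarone and 1051 ± 66.8 in LB DMSO, with an interval of -0.25 to 0.21. The 3 AKR1C rows summed to 1489 to 1603 TPM in LB amiodarone and 1476 to 1691 in LB DMSO. ALDH2 had 63.5 ± 1.79 TPM in LB amiodarone and 61.0 ± 3.75 in LB DMSO, with an interval of -0.10 to 0.22. The interval of ALDH1A3 was wider, from -0.70 to 0.36, with 15.8, 19.2 and 15.7 TPM in LB amiodarone, against 16.2, 23.9 and 18.0 in LB DMSO.

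Some relatives of these genes passed the test against LB DMSO, where 8.62% of all tested genes did. AKR1A1, the general aldehyde reductase, rose to 104 ± 2.39 TPM in LB amiodarone, against 75.1 ± 4.38 in LB DMSO (difference 0.47, adjusted p = 0.00242). KCNAB2, a potassium channel subunit with an AKR fold, rose to 19.4 ± 1.40 TPM in LB amiodarone, against 11.5 ± 1.21 in LB DMSO (difference 0.71, adjusted p = 0.000591). These were the 2 that rose among 6 tested other AKR genes, and 0 fell. RDH11, a retinal reductase, rose to 133 ± 11.2 TPM in LB amiodarone, against 87.3 ± 7.36 in LB DMSO (difference 0.61, adjusted p = 0.000251). CRABP2, which carries retinoic acid to its receptor, fell to 3.33 ± 0.883 TPM in LB amiodarone, against 7.34 ± 0.659 in LB DMSO (difference -0.96, adjusted p = 0.00294). Of 12 tested retinoid genes 2 rose and 1 fell, of 10 other ALDH genes 0 rose and 1 fell, of 10 carbonyl reductases and alcohol dehydrogenases 0 rose and 1 fell, and of 21 NRF2 genes 3 rose and 1 fell. Within these counts, the calls of RDH10, ALDH18A1, HSD17B10, TXN and TXNRD1 were lost without some library. ME1 rose to 97.8 ± 6.43 TPM in LB amiodarone, against 64.9 ± 1.59 in LB DMSO (difference 0.58, adjusted p = 0.000263). KEAP1 had 53.2 ± 2.45 TPM in LB amiodarone and 64.9 ± 1.51 in LB DMSO (difference -0.28, adjusted p = 0.0281), a call lost without any 1 of the LB DMSO libraries or LB amiodarone replicate 2 or 3 (adjusted p from 0.0658 to 0.0973). NQO1 had 3218 ± 231 TPM in LB amiodarone and 3032 ± 199 in LB DMSO (adjusted p = 0.565), and NFE2L2 had 44.9 ± 7.14 and 40.6 ± 3.46 in those groups (adjusted p = 0.488).

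LB amiodarone plus HPbCD was set against LB amiodarone, called HPbCD added to amiodarone here although HPbCD was given first, at seeding. This comparison shares its LB amiodarone libraries with the comparison above. None of the 10 members passed limma's test, where 4.07% of tested genes did, 2.71% higher and 1.36% lower. An unadjusted p under 0.05 was found for 4 members, AKR1C1, AKR1C3, ALDH1A1 and ALDH3A2, against 18% of tested genes. ALDH3A2 had 161, 152 and 168 TPM in LB amiodarone plus HPbCD, against 179, 181 and 191 in LB amiodarone. Its groups did not overlap, and the difference was -0.20 ± 0.06 (adjusted p = 0.122). It passed after quantile normalization (adjusted p = 0.0375) and without A549 DMSO replicate 3 (adjusted p = 0.0476), with adjusted p from 0.0361 to 0.294 across the alternatives. ALDH1A1 had 3529, 3554 and 3416 TPM in LB amiodarone plus HPbCD, against 3801, 3824 and 3908 in LB amiodarone (difference -0.14 ± 0.05, adjusted p = 0.2). No overlap was seen for 5 of the 10 members, AKR1C1, AKR1C2, AKR1C3, ALDH1A1 and ALDH3A2, against 25.1% of tested genes. Of the 5, AKR1C1 was higher and the others lower, against 12.9% of tested genes higher and 12.2% lower.

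Within the AKR1C rows the values ran in opposite directions between LB amiodarone plus HPbCD and LB amiodarone. AKR1C1 had 139, 149.95 and 154 TPM in LB amiodarone plus HPbCD, against 115, 126.5 and 127 in LB amiodarone (difference 0.26 ± 0.11, adjusted p = 0.215). AKR1C3 had 308, 349 and 326 TPM in LB amiodarone plus HPbCD, against 365, 397 and 382 in LB amiodarone (difference -0.22 ± 0.09, adjusted p = 0.2). AKR1C2 had 879, 979.6 and 968 TPM in LB amiodarone plus HPbCD, against 1009, 1010.1 and 1093 in LB amiodarone (difference -0.14 ± 0.10, adjusted p = 0.537). AKR1C1 therefore held 10.1 to 10.6% of the 3 rows in LB amiodarone plus HPbCD, against 7.72 to 8.25% in LB amiodarone, 6.66 to 7.66% in LB DMSO and 6.96 to 7.88% in A549 DMSO. Because these rows share reads, a share is only as good as the division of reads that made it, and its part in the split was not tested. The other lists held 0 calls among 6 other AKR genes, 1 fall among 10 other ALDH genes and 1 fall among 21 NRF2 genes. They also held 1 rise and 1 fall among 12 retinoid genes and 0 calls among 10 carbonyl reductases and alcohol dehydrogenases. Of all tested genes 4.07% passed. The ALDH fall, that of ALDH1L2, and the retinoid fall, that of STRA6, lost their calls without some library. RDH10, which makes retinal from retinol, rose to 99.5 ± 4.25 TPM in LB amiodarone plus HPbCD, against 59.5 ± 4.20 in LB amiodarone (difference 0.73, adjusted p = 0.00451). ME1 fell to 72.8 ± 4.72 TPM in LB amiodarone plus HPbCD, against 97.8 ± 6.43 in LB amiodarone (difference -0.42, adjusted p = 0.00529). NQO1 had 3269 ± 139 TPM in LB amiodarone plus HPbCD and 3218 ± 231 in LB amiodarone (adjusted p = 0.913). NFE2L2 had 43.7 ± 3.35 and 44.9 ± 7.14 TPM in those groups (adjusted p = 0.919), and KEAP1 had 53.9 ± 3.75 and 53.2 ± 2.45 (adjusted p = 0.941).

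**Figure D4:**
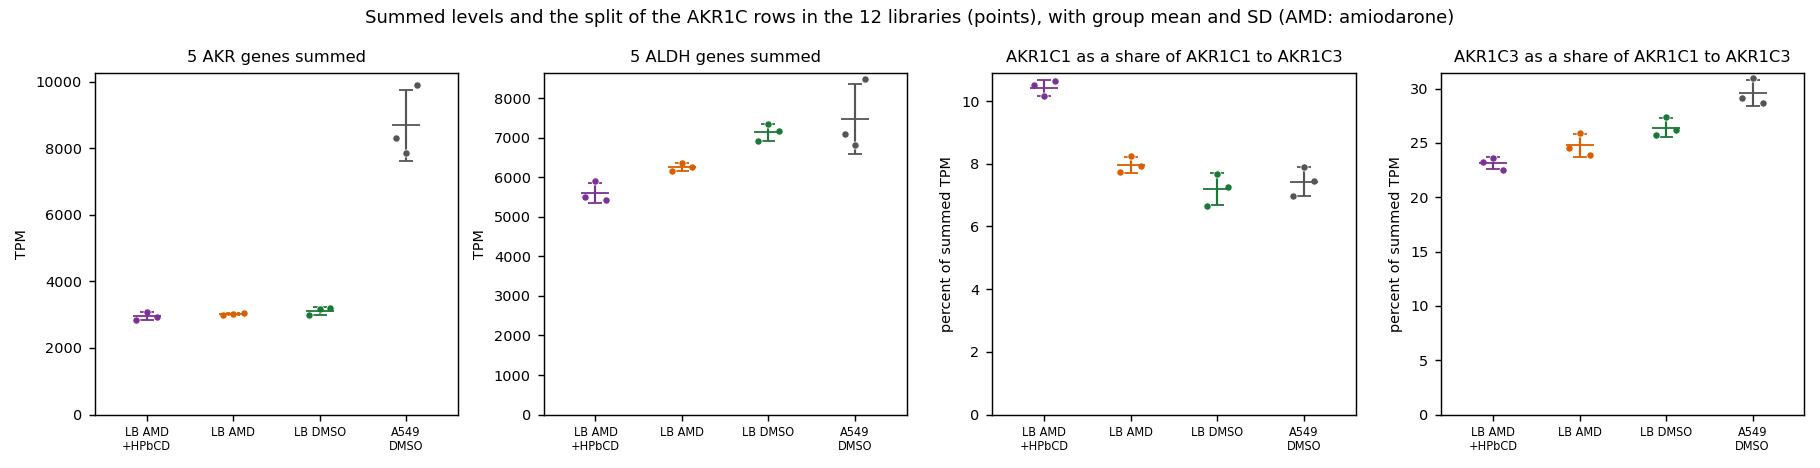
Summed TPM of the 5 AKR and of the 5 ALDH genes (vertical axes from 0) and the percent of the summed AKR1C1, AKR1C2 and AKR1C3 level held by AKR1C1 and by AKR1C3, in the 12 libraries by group. Points are libraries, ticks are means and bars are SD. The mean AKR sum lies between 2955 and 3112 TPM in the LB groups and at 8692 TPM in A549 DMSO, the ALDH sum is lowest in LB amiodarone plus HPbCD, then LB amiodarone, then LB DMSO, and the AKR1C1 share is highest with HPbCD.

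Against LB DMSO, 3 of the 5 ALDH members and AKR1C3 were lower in LB amiodarone plus HPbCD, and AKR1C1 was higher. Of the 10 members 4 fell, 1 rose and 5 did not pass limma's test, where 7.81% of tested genes fell, 10.1% rose and 17.9% passed in either direction. The median difference was -0.16 over the members and -0.018 over all tested genes. The groups did not overlap for 7 members, of which AKR1B10 and AKR1C1 were higher, against 39.1% of tested genes, 19% higher and 20.1% lower. This comparison shares libraries with both before it, so its values are not independent of theirs.

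ALDH3A1 changed most, with 1732, 2106 and 1753 TPM in LB amiodarone plus HPbCD, against 2553, 2884 and 2733 in LB DMSO. All 3 treated libraries lay below the vehicle libraries, and it fell by 0.55 ± 0.11 on the log2 scale (adjusted p = 0.00466). Its mean fell by 31.6%. ALDH1A1 had 3529, 3554 and 3416 TPM in LB amiodarone plus HPbCD, against 4101, 4188 and 4172 in LB DMSO, and fell by 0.25 ± 0.05 (adjusted p = 0.00694), a call lost after quantile normalization (adjusted p = 0.0904, the highest of a range that began at 0.000604). Its LB libraries were among the tightest of the members, with an SD of 1.12 to 2.11% of the mean.

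ALDH3A2 had 161, 152 and 168 TPM in LB amiodarone plus HPbCD, against 185, 182 and 194 in LB DMSO, and fell by 0.22 ± 0.06 (adjusted p = 0.0311). Its call was lost without LB DMSO replicate 1 (adjusted p = 0.0714), 2 (0.0534) or 3 (0.107) and on leaving out LB amiodarone plus HPbCD replicate 1 (0.0757) or 2 (0.108), with adjusted p from 0.00691 to 0.108 across the alternatives. ALDH2 had 63.0 ± 1.31 TPM in LB amiodarone plus HPbCD and 61.0 ± 3.75 in LB DMSO, with a 95% interval of the difference of -0.11 to 0.21. ALDH1A3 had 19.5, 26.1 and 17.6 TPM in LB amiodarone plus HPbCD and 16.2, 23.9 and 18.0 in LB DMSO, with an interval of -0.41 to 0.65.

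The sum of the 5 ALDH genes was 5503, 5902 and 5418 TPM in LB amiodarone plus HPbCD, 6170 to 6362 in LB amiodarone and 6916, 7342 and 7174 in LB DMSO. The 3 groups did not overlap, and with both agents the mean fell by 21.5% against LB DMSO. ALDH1A1 held 57.0 to 59.3% of this sum in LB DMSO. Not all 5 genes fell with both agents, since the means of ALDH2 and ALDH1A3 were 3.21% and 8.88% higher. The sum of the 5 AKR genes overlapped between these groups, at 2843 to 3090 TPM in LB amiodarone plus HPbCD and 2977 to 3195 in LB DMSO.

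AKR1C1 had 139, 149.95 and 154 TPM in LB amiodarone plus HPbCD, against 98.3, 121 and 123 in LB DMSO, and rose by 0.38 ± 0.11 (adjusted p = 0.0298). Its call was lost without LB DMSO replicate 1, the lowest library (difference 0.27, adjusted p = 0.119), and on leaving out LB amiodarone plus HPbCD replicate 2 (0.081) or 3 (0.0954), with adjusted p from 0.00622 to 0.119 across the alternatives. AKR1C3 had 308, 349 and 326 TPM in LB amiodarone plus HPbCD, against 379, 433 and 442 in LB DMSO, and fell by 0.35 ± 0.09 (adjusted p = 0.0151). Its call was lost without LB DMSO replicate 2 (adjusted p = 0.0586) or 3 (0.0629) and on leaving out LB amiodarone plus HPbCD replicate 1 (0.0649), with adjusted p from 0.00361 to 0.0649 across the alternatives. With the AKR1C rows summed, the difference was -0.16. AKR1B10 had 696, 737 and 778 TPM in LB amiodarone plus HPbCD, against 584, 625 and 684 in LB DMSO, without overlap and not past the test (difference 0.23 ± 0.09, adjusted p = 0.104). It passed without A549 DMSO replicate 3 (adjusted p = 0.0357), with adjusted p from 0.0106 to 0.297 across the alternatives. AKR1B1 had 820.3, 875 and 706 TPM in LB amiodarone plus HPbCD, against 917, 955 and 820.5 in LB DMSO, with overlap and not past the test (difference -0.17 ± 0.09, adjusted p = 0.209, from 0.0102 to 0.585 across the alternatives). AKR1C2 had 942 ± 54.9 TPM in LB amiodarone plus HPbCD and 1051 ± 66.8 in LB DMSO (difference -0.16 ± 0.10, adjusted p = 0.331).

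Around the members, 2 of 6 other AKR genes rose and 0 fell with both agents, against LB DMSO. AKR1A1 rose to 103 ± 9.76 TPM in LB amiodarone plus HPbCD, against 75.1 ± 4.38 in LB DMSO (difference 0.44, adjusted p = 0.00155), and KCNAB2 to 24.3 ± 2.06, against 11.5 ± 1.21 (difference 1.02, adjusted p = 1.36e-05). Of 21 NRF2 genes 3 rose and 4 fell, and the fall of GPX2 lost its call without some library. TXNRD1, thioredoxin reductase, rose to 1153 ± 29.7 TPM in LB amiodarone plus HPbCD, against 905 ± 31.0 in LB DMSO (difference 0.35, adjusted p = 0.00015), and HMOX1 rose to 321 ± 22.7, against 204 ± 13.7 (difference 0.65, adjusted p = 0.00199). TXN, thioredoxin, rose too, by 0.43 (adjusted p = 0.000234). KEAP1 had 53.9 ± 3.75 TPM in LB amiodarone plus HPbCD and 64.9 ± 1.51 in LB DMSO (difference -0.27, adjusted p = 0.0198), a call lost without LB DMSO replicate 1 or 2 or LB amiodarone plus HPbCD replicate 1 or 3 (adjusted p from 0.0559 to 0.0822). NQO1 had 3269 ± 139 TPM in LB amiodarone plus HPbCD and 3032 ± 199 in LB DMSO (adjusted p = 0.362), and NFE2L2 had 43.7 ± 3.35 and 40.6 ± 3.46 in those groups (adjusted p = 0.535).

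Among 12 retinoid genes 2 rose and 3 fell. RDH10 had 99.5 ± 4.25 TPM in LB amiodarone plus HPbCD and 40.1 ± 1.10 in LB DMSO (difference 1.29, adjusted p = 1.27e-05), and STRA6, a retinol uptake receptor, had 18.4 ± 2.76 and 31.3 ± 1.99 in those groups (difference -0.74, adjusted p = 0.000586). Of 10 other ALDH genes 0 rose and 2 fell, among them ALDH18A1, which makes the proline precursor, at 33.5 ± 1.22 TPM in LB amiodarone plus HPbCD and 41.2 ± 1.28 in LB DMSO (difference -0.29, adjusted p = 0.00203). Of 10 carbonyl reductases and alcohol dehydrogenases 0 rose and 3 fell, among them DCXR, which reduces xylulose, at 95.5 ± 3.02 TPM in LB amiodarone plus HPbCD and 117 ± 4.30 in LB DMSO (difference -0.30, adjusted p = 0.00173). Within these counts, the falls of ALDH4A1, CBR4 and HSD17B10 lost their calls without some library.

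Patterns over the 12 libraries were compared by Pearson's r of log2(TPM + 1). For the 7 members past the test between the lines, r also follows the gap between the lines, since libraries of a group share it. ALDH1A3, ALDH3A1 and ALDH3A2 did not pass that test. The pattern most like AKR1C1 was that of AKR1B10 (r = 0.991), before SLPI (0.991) and IGFBP3 (0.991). For AKR1C2 they were ST6GAL2 (0.994), AKR1C3 (0.994) and SLC22A3 (0.993), and for AKR1C3 they were GPX2 (0.996), GPRIN2 (0.996) and MARCKSL1 (0.995). AKR1B10 was most like B4GALT4 (0.995), TRPC6 (0.994) and KCNK1 (0.992), and AKR1B1 was most like CAV1 (0.989), the pseudogene KRT18P38 (0.982) and EEF1A2 (0.980). ALDH1A1 was closest to LXN (0.987), TADA3 (0.976) and LTA4H (0.976), and ALDH3A1 to ASMTL (0.955), FGB (0.912) and NINJ1 (0.911). For ALDH2 they were CADM4 (0.964) and CCDC102A (0.957), and for ALDH3A2 they were ARHGAP18 (0.954), SLC12A2 (0.943) and PDE7A (0.933). ALDH1A3 had the weakest likeness, to TXNRD2 (0.872) and PLAU (0.863).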

How the data were processed

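Libraries came from a stranded mRNA kit, per the labels' protocols. The deposited table holds TPM by gene symbol, which the authors made with STAR 2.7.3a and RSEM 1.3.1 on GRCh38, as named in the submitters' processing notes. No source used here gives the annotation release, the read length or the depth. Of 57189 rows 37 hold no value. Values were taken as log2(TPM + 1), and 13968 genes averaging 1 TPM or more were fitted over all 4 groups with limma 3.58.1 in R 4.3.3 (mean-variance trend, 8 residual degrees of freedom, two-sided, Benjamini-Hochberg within each of 4 comparisons, threshold 0.05). TPM is not a count, so no count model was used, and a log2 difference understates changes of low genes. Sequences and positions came from GENCODE 29 and RefSeq (GRCh38.p14), aligned with Biopython 1.88. The fit was tested on simulated data. The members and lists were chosen with earlier results of these data known. The genes named came from the 10 members, up to 4 genes per list and comparison with the largest change past the test, NFE2L2, KEAP1 and NQO1, and the 3 most similar patterns per member, of which some are not reported here. Of 51 list results past the test 18 lost their call without some library, and most of these are named without their values. That choice, and naming AKR1C4, UGDH, TALDO1 and TKT, followed a look at the values. Some other genes under the rule were left out for length. Alternatives were pseudocounts of 0.1 and 5, no filter on low values or one at 5 TPM, size-factor scaling by median ratios, quantile normalization, limma without trend or with robust variance, a fit of the compared groups alone, the replicate block, each library left out, and summed AKR1C rows.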

Additional observations from a re-analysis of the deposited data

How the results depend on the processing

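The 7 falls between LB DMSO and A549 DMSO kept their direction and stayed past the test under every alternative run, and the count with each library left out was 7 to 8. For amiodarone plus HPbCD against LB DMSO the count of 5 became 3 with no filter and 3 with limma without trend, where AKR1C1 and ALDH3A2 lost their calls, and lay between 3 and 6 with a library left out. For amiodarone against LB DMSO the count of 0 became 1 when only the 2 groups compared were fitted (ALDH3A1), and for HPbCD added to amiodarone it became 1 after quantile normalization (ALDH3A2). With a library left out both counts lay between 0 and 1. Summing the AKR1C rows turned the AKR1C1 rise with both agents into -0.16, because AKR1C2 and AKR1C3 make up most of the sum. There were 14 further sign changes, all among differences not past the test in either setting. Counts over all tested genes with a library left out lay between 630 and 1493 for amiodarone (1204 with all) and between 282 and 827 for added HPbCD (568 with all).

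Same-numbered libraries did not deviate together throughout. Correlations of deviations were -0.0273 to 0.212 for equal numbers and -0.128 to 0.0653 for unequal ones. From 3 to 5 of 6 libraries per comparison correlated best with their own number. In every group AKR1B1 was lowest in replicate 3 and highest in replicate 2, and ALDH1A3 was highest in replicate 2. AKR1B10, AKR1C1 and ALDH3A2 were highest in replicate 3 in every group, and AKR1C1 was lowest in replicate 1. The main fit did not pair the samples by number, and whether the numbers mark a pairing is not known. With the replicate block the count was 1 for amiodarone against LB DMSO (AKR1B1, adjusted p = 0.0423), 1 for added HPbCD (ALDH3A2, 0.0361) and 7 for both agents against LB DMSO, where AKR1B1 (0.0102) and AKR1B10 (0.0106) joined the 5, and 7 for LB DMSO against A549 DMSO.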
